A study of Mus musculus with 16 samples.

Results

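Of the 16 arrays of this mouse series, the 8 described here compare 17beta-estradiol (E2) with its vehicle in the uterus of mice of the genotype named Arg260: 4 arrays of vehicle-treated Arg260 uteri (called PLB) and 4 arrays of E2-treated Arg260 uteri. The members were chosen by their sample titles, and the measurements are those of all 36389 non-control probes, standing for 24646 genes, whose signal stood clear of background on 4 or more of these 8 arrays (the scanner software's call, named well above background from here on). All mice had been ovariectomised at 4 weeks of age and kept for 2 to 3 weeks on normal chow, so that the ovaries no longer supplied hormone; PLB mice received castor oil with 0 ug/kg of E2 and E2 mice 8 ug/kg in castor oil by subcutaneous injection, and the uterus was collected after 6 h. Arg260 mice carry a changed form of estrogen receptor alpha, named after arginine 260; the labels state neither the substitution nor how the line was made or whether it descends from 1 founder. The other 8 arrays, of wild-type (WT) uteri under the same treatments, are used only to test whether a response differed between genotypes. The labels number the 4 samples of a group, and each title opens with a different number whose meaning is not given. They do not state that each sample is from its own mouse. The p-values therefore reflect just the spread among these arrays, and this may be technical.

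Estrogen receptor alpha, the product of Esr1, is a ligand-activated transcription factor that binds DNA at estrogen response elements and also joins Fos and Jun proteins at their own sites; a share of it sits at the cell membrane, where it engages Src and phosphoinositide 3-kinase. In human cells, arginine 260 of the receptor is known as a target of the methyltransferase Prmt1, and its methylation is linked to the membrane-associated complex. In the uterus of ovariectomised rodents, an injection of E2 is known to set off an early phase of hyperaemia, water uptake and RNA and protein synthesis within hours, followed by DNA synthesis and division of the epithelium about a day later.

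Levels are log2 values of the background-subtracted Cy3 signal relative to the 75th percentile of the same array, so that 0 is the level of the 75th percentile. A change is the mean of the 4 E2 arrays minus the mean of the 4 PLB arrays on that scale, 1 log2 unit being 2-fold, and errors of changes are standard errors (SE) from limma with n = 4 arrays per group. A gene was called, and is said to have risen or fallen, at an adjusted p under 0.05 (limma, two-sided, Benjamini-Hochberg over all 36389 probes). Because whole uteri were measured, fewer cells of a type and less RNA per cell cannot be told apart. No comparison is made between the levels of different probes.

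Each of the 8 arrays had 36505 to 41890 non-control spots well above background (61.6% to 70.6%) and 0 saturated ones. Across genes, PLB arrays correlated with each other at 0.982 to 0.994 and E2 arrays at 0.989 to 0.993, against 0.923 to 0.949 between the groups. Principal component 1 (79.4% of the variance) separated the PLB from the E2 arrays; on the next, with 6.61%, PLB replicate 3 stood at 60.8 and the other PLB arrays between -31.4 and -7.36. On PLB replicate 3, 161 of 21765 genes measured on all 8 arrays lay at least 4-fold above the highest other PLB array, 40 of them annotated as immunoglobulin transcripts, and 7 lay as far below the lowest; on the other arrays between 1 and 12 genes per array stood that far apart from the rest of their group. The median level of 89 immunoglobulin transcripts was -0.58 on PLB replicate 3 and -4.15 to -2.56 on the other PLB arrays, and the mean level of 11 macrophage markers was 2.45 there against 0.88 to 1.18. Of the macrophage markers 1 rose (2 without PLB replicate 3) and 4 fell, and their mean level on the E2 arrays ran from 0.72 to 1.08. Whether RNA of these cell types had a part in any change described here was not tested; each count of called genes was also made without PLB replicate 3 and is given where it moved by more than 1.5 times. To check the tissue label, mean levels were taken of 10 epithelial (1.95 to 2.97), 10 stromal (3.28 to 3.96) and 10 smooth muscle markers (3.51 to 4.56). All 30 were well above background on all 8 arrays. These markers stand for cell types, so the check cannot set the uterus apart from other organs with the same cell types. Smooth muscle markers were lowest on PLB replicate 3 (3.51) and epithelial markers were higher on the E2 arrays (2.62 to 2.97) than on the PLB arrays (1.95 to 2.42), with 4 of 10 risen and 2 fallen. Stromal markers went the other way, from 3.58 to 3.96 on the PLB arrays to 3.28 to 3.55 on the E2 arrays, with 6 of 10 fallen and 1 risen. Some of these markers also belong to gene lists described below, Muc1 to the estrogen targets and Nr2f2 and Hand2 to the hedgehog genes. Marker and response genes thus overlap. The part of either shift in the changes described here was not tested. The array reads no base change, so that the Arg260 label itself could not be checked.

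**Figure D1:**
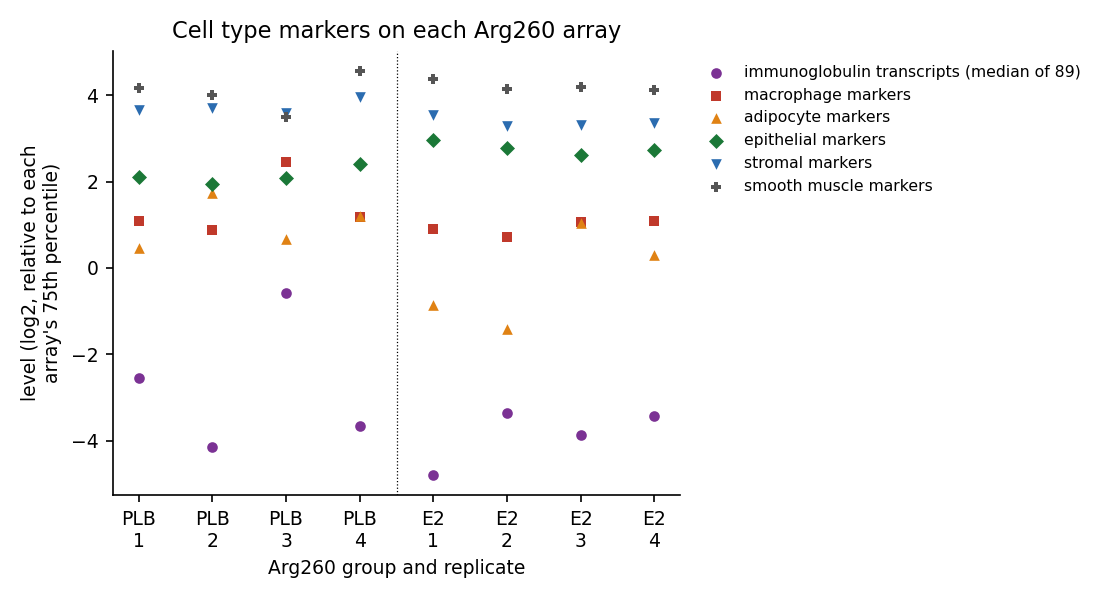
Mean log2 level of 5 marker lists and median level of 89 immunoglobulin transcripts on each of the 8 Arg260 arrays (y axis, relative to each array's 75th percentile; x axis, group and replicate). PLB replicate 3 carries the highest immunoglobulin (-0.58) and macrophage (2.45) levels, and adipocyte markers run from -1.41 to 1.73 across the arrays.

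E2 changed most of the genes measured in the Arg260 uterus. At an adjusted p under 0.05, 15830 of 24646 genes were called (64.2%), 8335 of them higher (33.8% of the genes tested) and 7495 lower (30.4%). At least 2-fold changes were called for 3502 rises (14.2%) and 3562 falls (14.5%). The median change over all genes was 0.03 and the median size of a called change 0.91 log2 units. For 103 of the rises and 202 of the falls no array of the lower group was well above background, and their sizes are only bounds. Among the other called genes, 823 rose and 853 fell at least 4-fold, 124 rose and 33 fell at least 16-fold, and 19 rose and 1 fell at least 64-fold. With the bounded genes taken at their bounds, 131 rose and 35 fell at least 16-fold. The 4 PLB and 4 E2 values did not overlap for 14884 genes (60.4%). Without PLB replicate 3, 15629 genes were called. Quantile normalisation moved the median of all genes to -0.01 and the split of the calls from 52.7% to 49.2% higher. Of 3403 long intergenic transcripts tested 1782 were called (52.4%), and of 15788 protein-coding genes 68.6% were. These shares are the background for every list described below.

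**Figure D2:**
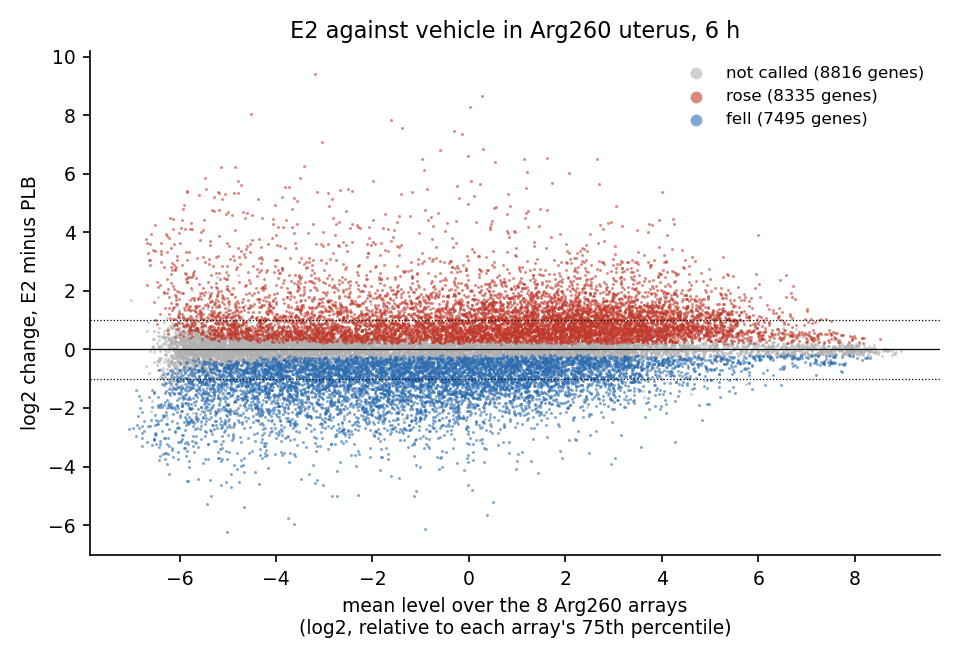
Log2 change, E2 minus PLB (y axis), against the mean level over the 8 Arg260 arrays (x axis, log2 relative to each array's 75th percentile), 1 point per gene; dotted lines mark 2-fold. Among 24646 genes, 8335 rose and 7495 fell at an adjusted p under 0.05.

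The receptor gene itself changed little. Esr1 was represented by 4 probes. The probe with the highest signal, at chr10:5343056-5343115 on mouse build mm9, read 3.83, 3.88, 3.57 and 3.87 on the PLB arrays and 3.29, 3.52, 3.62 and 3.31 on the E2 arrays. The lowest PLB value lay below the highest E2 value, so that the groups overlapped. The change was -0.35 (SE 0.11, adjusted p = 0.0255, limma). This call ended without PLB replicate 1 (adjusted p = 0.0632), 2 (0.066) or 4 (0.0582) and without E2 replicate 1 (0.0631) or 4 (0.0693), with the change between -0.42 and -0.30 over all leave-one-out fits. A second probe rose by 0.40 (SE 0.09), and the remaining probes, at -0.25 and -0.32, were not called. Esr2, which encodes the other nuclear estrogen receptor, changed by -0.10 and was not called (-0.49 and called with quantile normalisation). Gper1, which encodes a membrane receptor of the G protein-coupled class that responds to E2, fell by 2.35 (SE 0.16).

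Classical estrogen targets of the uterus rose. Of 31 tested members of this list, 26 rose, 1 fell and 4 were not called, with a median change of 2.92 against 0.03 for all genes. Pgr, the progesterone receptor gene and the target most often used as a readout of receptor activity, read 2.07, 2.35, 1.66 and 2.83 on the PLB arrays and 4.73, 4.69, 4.33 and 4.64 on the E2 arrays. Every E2 array was above every PLB array, and the rise was 2.37 (SE 0.23), or 5.18-fold; its other probes gave 2.36 and 2.99. Greb1, a chromatin-bound cofactor of the receptor, rose from 2.18, 2.28, 2.21 and 1.70 to 6.18, 6.45, 6.25 and 6.68, a change of 4.30 (SE 0.16) with no overlap. Igf1, the growth factor through which the stroma is known to drive epithelial division, stood at 1.38, 1.53, 1.17 and 2.60 on PLB and 5.14, 4.53, 4.20 and 4.49 on E2 arrays and rose by 2.92 (SE 0.33).

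Other members of this list gave rises of similar or larger size. The tissue kallikrein gene Klk1 changed by 6.39 (SE 0.32), which is 83.9-fold, the spindle checkpoint gene Mad2l1 by 5.65 (SE 0.15), the adrenomedullin co-receptor gene Ramp3 by 5.39 (SE 0.19), and Inhbb, which encodes an activin subunit, by 4.25 (SE 0.18). Rises of 2.71 for Lif, the cytokine needed for implantation, and 3.31 for Wnt4, a signal of stromal decidualisation, also passed the test. Nrip1, a corepressor that is itself induced by the receptor, rose by 2.27, the myometrial oxytocin receptor gene Oxtr by 3.54 and the gap junction gene Gjb2 by 3.19. The single member that fell was Msx1, a homeobox gene of the uterine epithelium (-0.75, SE 0.11). Ltf (lactotransferrin) and C3 (complement), well known as estrogen-induced secreted products of the epithelium, changed by only 0.40 and 0.20 and were not called; Ltf read 2.06, 1.68, 1.68 and 0.71 on PLB and 2.19, 1.76, 1.24 and 2.54 on E2 arrays, so that the groups overlapped. Ccnd1 (cyclin D1) changed by 0.19 and was not called either.

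The regulators around the receptor changed in both directions. Among 31 coregulator genes, 18 rose and 5 fell (11 rose and 8 fell with quantile normalisation), with a median of 0.37. Pprc1, a coactivator of mitochondrial biogenesis, rose by 2.20, whereas Ppargc1a, its relative in oxidative tissues, fell by 3.35, Cited2 fell by 2.18 and the acetyltransferase gene Kat2b fell by 1.53. Of 12 genes of protein arginine methylation, the modification that Arg260 of the receptor is known to carry, 9 rose and 2 fell (median 1.17). Prmt1 rose by 1.70 (SE 0.11), Prmt6 by 3.03 (SE 0.17) on its brightest probe but by 0.47 and 0.43 on the others, Prmt5 by 1.18 and its partner Wdr77 by 1.87; Jmjd6, reported elsewhere to remove arginine methyl groups, rose by 1.84, and Prmt2 fell by 0.92.

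Partners of the membrane-associated receptor were split. Of 29 tested, 14 rose and 8 fell, with 9 rises and 9 falls under quantile normalisation and a median of 0.33 that dropped to 0.01 there. Nos3, the endothelial nitric oxide synthase, rose by 2.65 (SE 0.16), the caveolin gene Cav3 by 2.97 (SE 0.34), and the kinase genes Map2k1 and Akt1 by 1.93 and 1.70. Hras rose by 1.17 on its brighter probe and was not called on the other (0.335). Among the falls, Igf1r, the receptor of Igf1, fell by 1.42, the regulatory subunit genes Pik3r1 and Pik3r2 of phosphoinositide 3-kinase fell by 0.85 and 1.42, and Mapk3 fell by 1.17. Src itself changed by 0.65 and was not called.

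In the list of steroid and other nuclear receptors, falls outnumbered rises. Of 27 genes tested, 16 fell and 5 rose (median -0.49). The list includes Esr1, Esr2, Pgr and the membrane receptor gene Gper1, and Esr1 and Gper1 are among the falls. Thra, a thyroid hormone receptor gene, fell by 2.92, the retinoic acid receptor gene Rarb fell by 2.10 (-1.77 and called, and -0.30 and not called, on its other probes), the vitamin D receptor gene Vdr fell by 1.38, and Nr2f2, a regulator of stromal identity, fell by 0.85. The glucocorticoid receptor gene Nr3c1 fell by 0.77. Besides Pgr, the rises were those of Rara (1.94), Pparg (1.32), Ppard (0.71) and Rxrg (0.43).

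Most immediate-early genes were raised at 6 h, the only time measured. Of 29 tested, 22 rose and 3 fell, with a median of 2.06 (2.03 with the 2 bounded members at their bounds). Fos, whose protein pairs with Jun on DNA, was at 0.76, -1.79, -1.78 and 0.19 on PLB and 2.96, 3.88, 3.72 and 3.65 on E2 arrays, rising by 4.21 (SE 0.59) without overlap. Egr1 rose by 2.82, Nr4a1 by 3.05, Junb by 2.46, Klf4 by 2.33 and the matricellular gene Ccn1 by 3.08. Fosl1 and Egr4 were not well above background on any PLB array and were at least 11.5-fold and 2.76-fold higher. Jun was not called (0.29). Klf15 fell by 1.68 and Ccn2, the matricellular relative of Ccn1, fell by 1.43. Feedback inhibitors of the MAP kinase route were mixed, with 11 of 22 raised and 8 lowered: Errfi1, which shuts off EGF receptors, rose by 3.40 and the phosphatase genes Dusp1 and Dusp6 by 1.33 and 1.11, whereas Dusp10 fell by 1.30, Etv5 fell by 1.60 and Etv1 fell by 2.78.

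Growth factor families moved in both directions. In the IGF family 2 of 16 members rose and 10 fell: Igf1 and the stanniocalcin gene Stc2 (1.86) were the rises, and Irs2, the adaptor of insulin and IGF receptors, fell by 3.81, the binding protein gene Igfbp3 fell by 1.87 and the clearance receptor gene Igf2r fell by 1.70. Insr fell by 0.93 on its brightest probe, but its 3 probes ran from -0.93 to -0.16 and not all were called. In the EGF family the ligand genes Nrg2, Nrg1 and Hbegf rose by 3.35, 1.84 and 1.69, while the receptor gene Erbb2 fell by 0.83. The ligand gene Btc and the receptor gene Erbb3 were not well above background on any E2 array and were at least 3.91-fold and 2.29-fold lower. Among FGF genes, Fgf9 rose by 0.87 and Fgfr3 by 2.09, and the stromal ligand genes Fgf10 and Fgf18 fell by 2.95 and 1.98.

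Wnt genes fell more often than they rose, with 16 falls and 6 rises among 34 (median -0.50). The ligand genes Wnt4 and Wnt7b rose by 3.31 and 3.31, and Axin2, a transcriptional readout of beta-catenin signalling, rose by 1.56 (SE 0.12). Falls reached Ndp, the secreted ligand Norrin (-4.85, SE 0.17), Rspo3, an R-spondin that stabilises Wnt receptors (-3.90, SE 0.14), Wnt6 (-2.73), the inhibitor gene Sfrp2 (-2.41) and the receptor genes Fzd1 and Fzd2 (-2.30 and -2.17). Rspo3 read 4.95, 5.08, 4.73 and 4.82 on PLB arrays and 1.23, 1.14, 0.72 and 0.88 on E2 arrays, far apart on every array. In the hedgehog pathway the epithelial ligand gene Ihh rose by 1.40 (SE 0.35), with the lowest E2 array (0.95) just under the highest PLB array (0.96), and Dhh by 3.00, while Ptch1, the hedgehog receptor gene and a usual target of the pathway, fell by 2.98 (SE 0.14). Of the BMP genes, Bmp2 and Bmp4 fell by 1.20 and 1.23, and the inhibitor gene Fstl3 rose by 1.94; over all 33 TGF-beta and BMP genes 10 rose and 9 fell, but 16 fell with quantile normalisation, and the median of -0.10 turned to 0.06 without E2 replicate 3.

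**Figure D3:**
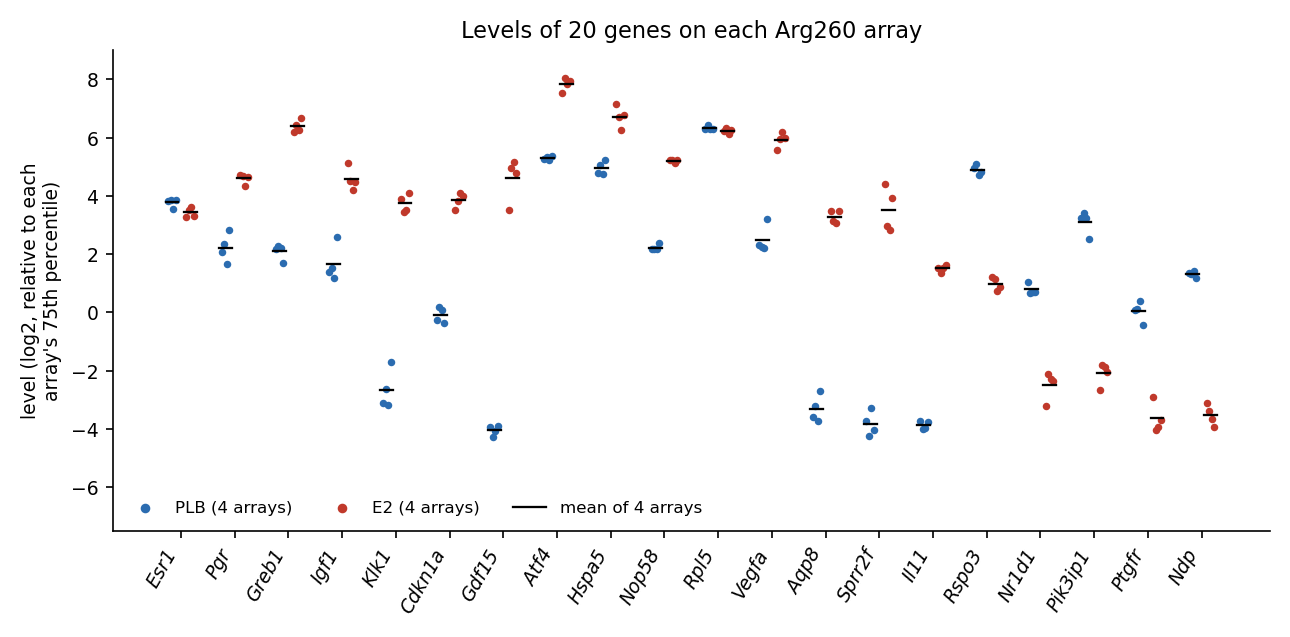
Level of 20 genes on each array (points; y axis, log2 relative to each array's 75th percentile) in Arg260 PLB and E2 uteri, with the mean of 4 arrays as a line. PLB and E2 values overlap for Esr1 and Rpl5 and are apart for the other 18 genes, Gdf15 rising by 8.65 and Pik3ip1 changing by -5.19 on average.

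The listed stress outputs of the transcription factor Atf4 rose. Atf4 is translated when the initiation factor eIF2 is phosphorylated, as after a lack of amino acids or during endoplasmic reticulum stress, and turns on genes of amino acid supply and stress hormones. Of 22 listed genes 22 were tested and 22 rose, with a median of 2.55, against 33.8% of all genes. Gdf15, a stress-induced hormone of the TGF-beta family (probe at chr8:73153293-73153352, mm9), went from -3.92, -4.27, -4.08 and -3.91 on the PLB arrays to 3.50, 4.95, 5.16 and 4.78 on the E2 arrays. E2 replicate 1 was the lowest of its group yet lay far above all PLB arrays, and the rise was 8.65 (SE 0.33), or 401-fold. Fgf21, a hormone of fasting, was not well above background on any PLB array and read -1.22, -0.16, -0.67 and 0.09 on the E2 arrays, at least 56.9-fold higher. Atf4 rose from 5.25, 5.34, 5.24 and 5.36 to 7.52, 8.05, 7.84 and 7.96 (2.54, SE 0.12). Chac1, which degrades glutathione, read -0.88, -1.10, -1.42 and -1.08 on PLB and 2.74, 5.25, 5.07 and 5.21 on E2 arrays (5.69, SE 0.53), again with E2 replicate 1 lowest. The asparagine synthetase gene Asns rose by 4.29, the pseudokinase gene Trib3 by 3.63, the proline synthesis gene Pycr1 by 3.07, Atf3 by 2.81 and Ddit3, which encodes the death-linked factor CHOP, by 1.38.

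Promoter sequences are shown for 4 of these genes because they share a short motif. The letters TGATGCAA, the element bound by Atf4 with its C/EBP partners, were searched on both strands in the 250 bases before the transcription start in RefSeq promoters (build GRCm38.p6). They occurred in 7 of the 20 stress genes that have a promoter there (35.0%), namely Atf3, Chac1, Fgf21, Nupr1, Vldlr, Pycr1 and Herpud1, against 248 of 27025 genes (0.918%). The list was drawn up from outputs of Atf4, so a high share could follow from that choice alone, and no test was made. Of the gene lists described next, 0 of 17 serine and folate genes, 2 of 17 amino acid transporter genes (11.8%; Slc7a7 and Slc7a11) and 2 of 13 cytosolic tRNA synthetase genes (15.4%; Aars and Tars) held it. Among genes that rose at least 2-fold the share was 1.09%, among those that fell at least 2-fold 0.346% and among those not called 0.983%. Among the 595 that rose at least 4-fold, which include members of the stress list, it was 2.35%. The element lies in capitals in the windows below, each of 250 bases read 5′ to 3′ in the direction of the gene and ending just before its start; it begins 193 bases before the start of Chac1, 139 before Fgf21, 110 before Atf3 and 103 before Pycr1. Only Pycr1 holds it as TGATGCAA in this reading and the others as the reverse complement TTGCATCA. The positions are chr2:119350992-119351241, plus strand for Chac1, chr7:45615491-45615740, minus strand for Fgf21, chr1:191183334-191183583, minus strand for Atf3 and chr11:120643749-120643998, minus strand for Pycr1.
Chac1: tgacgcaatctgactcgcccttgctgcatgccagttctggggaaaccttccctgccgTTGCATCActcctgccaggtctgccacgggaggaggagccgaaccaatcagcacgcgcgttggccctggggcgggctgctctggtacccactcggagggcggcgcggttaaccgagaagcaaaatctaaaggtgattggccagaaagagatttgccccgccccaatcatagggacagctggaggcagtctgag
Fgf21: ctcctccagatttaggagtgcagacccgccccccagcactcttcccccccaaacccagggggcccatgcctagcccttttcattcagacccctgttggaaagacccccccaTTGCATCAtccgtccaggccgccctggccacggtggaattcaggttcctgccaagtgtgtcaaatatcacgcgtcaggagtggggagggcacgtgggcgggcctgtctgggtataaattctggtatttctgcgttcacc
Atf3: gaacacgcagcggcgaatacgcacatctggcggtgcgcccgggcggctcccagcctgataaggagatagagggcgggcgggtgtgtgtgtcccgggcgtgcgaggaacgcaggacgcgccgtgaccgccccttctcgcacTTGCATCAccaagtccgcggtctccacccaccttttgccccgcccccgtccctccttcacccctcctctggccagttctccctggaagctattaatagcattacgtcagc
Pycr1: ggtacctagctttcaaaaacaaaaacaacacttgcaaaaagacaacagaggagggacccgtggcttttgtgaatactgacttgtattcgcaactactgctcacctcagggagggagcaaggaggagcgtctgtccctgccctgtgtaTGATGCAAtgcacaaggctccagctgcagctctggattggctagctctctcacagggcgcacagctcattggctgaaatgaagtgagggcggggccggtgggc

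Genes of amino acid supply and tRNA charging rose as well. Mthfd2, the mitochondrial folate enzyme, rose by 6.82 (SE 0.23), or 113-fold, from -4.29, -3.98, -3.40 and -4.33 on the PLB arrays to 2.48, 2.94, 3.15 and 2.71 on the E2 arrays. The serine synthesis genes Phgdh, Psat1 and Psph rose by 3.02, 3.93 and 2.82, and 13 of 20 serine and folate genes rose in all and 4 fell. Of 24 amino acid transporter genes 15 rose and 6 fell: Slc7a5 and its partner Slc3a2, which import large neutral amino acids, rose by 3.96 (2.27 on a dimmer probe) and 2.42, Slc7a1 by 3.49 and the cystine importer Slc7a11 by 2.19, whereas the taurine carrier gene Slc6a6 fell by 1.84 and Slc43a1 fell by 2.31. Of 20 cytosolic aminoacyl-tRNA synthetase genes 19 rose and 0 fell (1 with quantile normalisation), with a median of 2.02, led by Yars (4.10) and Aars (4.01). Of 17 mitochondrial synthetase genes 7 rose and 5 fell, with a median of 0.10 that turned to -0.10 with quantile normalisation and 8 falls there, with Yars2 at 2.10.

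Ribosome assembly genes rose, and most ribosomal protein genes were not called. Of 54 ribosome biogenesis and RNA polymerase I genes 53 rose and 0 fell, with a median of 2.02; with quantile normalisation 52 rose and 1 fell. Nop58, a core protein of the small nucleolar particles that methylate ribosomal RNA, read 2.17, 2.18, 2.17 and 2.39 on PLB arrays and 5.22, 5.23, 5.13 and 5.22 on E2 arrays. The groups were far apart with little spread within each, and the rise was 2.97 (SE 0.08). The processome gene Rrp12 rose by 3.57, Bysl by 3.36, the helicase gene Ddx21 by 3.28, fibrillarin (Fbl) by 1.78, nucleolin (Ncl) by 1.74 and the RNA polymerase I initiation factor gene Rrn3 by 1.61. Of 49 cytosolic ribosomal protein genes, 6 rose, 3 fell and 40 were not called (median -0.04); with quantile normalisation 6 rose and 10 fell, with the mean of all probes of a gene 12 rose, without E2 replicate 2 only 3 rose, and without PLB replicate 1 only 1 fell. Their probes can cross-react with processed pseudogenes, so that single members are uncertain. Rpl5, a protein of the large subunit, was at 6.31, 6.44, 6.29 and 6.29 on PLB and 6.21, 6.34, 6.12 and 6.26 on E2 arrays, overlapping, a change of -0.10 that became -0.35 and called with quantile normalisation. Of 34 translation factor genes 30 rose and 2 fell (median 1.45): the eIF2 subunit genes Eif2s2 and Eif2s1 rose by 3.02 and 2.25 and the cap-binding gene Eif4e by 1.92, whereas Eef2k, the kinase that slows elongation, fell by 1.62.

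Proteasome, chaperone and nuclear transport genes rose. Of 31 proteasome subunit genes 31 rose, from 0.62 (Psmc3) to 1.88 (Psmc5), under each normalisation tried. Of 36 nuclear pore and transport genes 34 rose and 0 fell (1 with quantile normalisation), with the importin gene Kpna2 at 2.79 and Ran at 2.25. Of 29 cytosolic and mitochondrial chaperone genes 27 rose: Hspa4 by 2.62, Hsph1 by 2.31, mitochondrial Hspa9 and Hspd1 by 2.21 and 1.75, and the steroid receptor cochaperones Fkbp4 and Fkbp5 by 1.52 and 1.65.

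In the endoplasmic reticulum, 20 of 27 folding and degradation genes rose and 2 fell (median 0.80). Hspa5, the main chaperone of that compartment, read 4.80, 5.06, 4.77 and 5.22 on PLB and 7.14, 6.72, 6.25 and 6.79 on E2 arrays and rose by 1.76 (SE 0.19) without overlap. Manf rose by 1.98, Hyou1 by 1.97 and Creld2 by 1.92. The falls were those of Derl3, a retrotranslocation gene (-1.84, SE 0.46), and Ero1b, an oxidase gene (-1.14). The endoplasmic reticulum stress element, which is CCAAT followed after 9 bases of any kind by CCACG and is known to be bound by NF-Y with Atf6 or Xbp1, was searched the same way and was present in the 250-base window of 10 of the 23 listed genes with a promoter (43.5%) and of 35 of 27025 genes (0.13%). The list was chosen by function in this compartment, so a high share could follow from that choice alone. Of these 10 genes 8 rose, among them Hspa5, Creld2, Canx (0.95) and Dnajc3 (1.05), and the other 2 are those that fell. Syvn1, counted as a rise at 1.03, was also called on a dimmer probe, where it fell by 1.42. Windows of 2 genes that rose and of Derl3 are printed to show that the element, in capitals, is complete in genes of both directions. It begins 65 bases before the start of Hspa5 (chr2:34771840-34772089, plus strand), 126 before Creld2 (chr15:88819396-88819645, plus strand) and 156 before Derl3 (chr10:75893148-75893397, plus strand), in the reverse direction in Creld2 and Derl3.
Hspa5: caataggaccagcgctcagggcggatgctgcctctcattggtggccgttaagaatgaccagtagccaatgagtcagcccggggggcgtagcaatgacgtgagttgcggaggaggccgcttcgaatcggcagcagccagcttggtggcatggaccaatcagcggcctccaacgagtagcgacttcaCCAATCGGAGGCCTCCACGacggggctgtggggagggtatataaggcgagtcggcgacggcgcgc
Creld2: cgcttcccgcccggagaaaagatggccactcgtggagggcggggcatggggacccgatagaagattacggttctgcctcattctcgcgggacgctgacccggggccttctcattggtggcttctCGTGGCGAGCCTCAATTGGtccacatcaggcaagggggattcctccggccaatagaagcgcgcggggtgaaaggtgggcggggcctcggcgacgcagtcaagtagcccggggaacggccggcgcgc
Derl3: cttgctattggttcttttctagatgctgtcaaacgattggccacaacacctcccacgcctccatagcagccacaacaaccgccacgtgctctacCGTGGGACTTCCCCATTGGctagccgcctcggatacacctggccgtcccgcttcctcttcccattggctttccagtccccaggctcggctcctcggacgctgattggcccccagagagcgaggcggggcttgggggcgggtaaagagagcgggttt

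The palindromic estrogen response element, GGTCA and TGACC with 3 bases between them, was found in 18 of 27025 promoter windows (0.0666%) and in 0 of the 29 classical estrogen targets with a promoter. The single arm AGGTCA, which many copies of the palindrome contain, was found in 10 of these 29 (34.5%) and in 15.8% of all. Of the 10, Ltf, C3 and Ctsd were not called and the others rose. Its share was 15.4% among genes that rose at least 2-fold, 13.8% among those that fell at least 2-fold and 13.9% among those not called. Among the 595 that rose at least 4-fold it was 19.5%. The windows hold only the 250 bases next to the start, and these counts say only which letters they contain. The E-box CACGTG, a site known to be bound by Myc with Max and by clock proteins, was in 255 of 2119 genes that rose at least 2-fold, 151 of 2023 that fell at least 2-fold (7.46%), 7.88% of 4173 not called and 6.86% of all; in the ribosome biogenesis list it was in 3 of 48, and among clock genes in 5 of 16 (31.2%). The shares are a description, with no test.

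**Figure D4:**
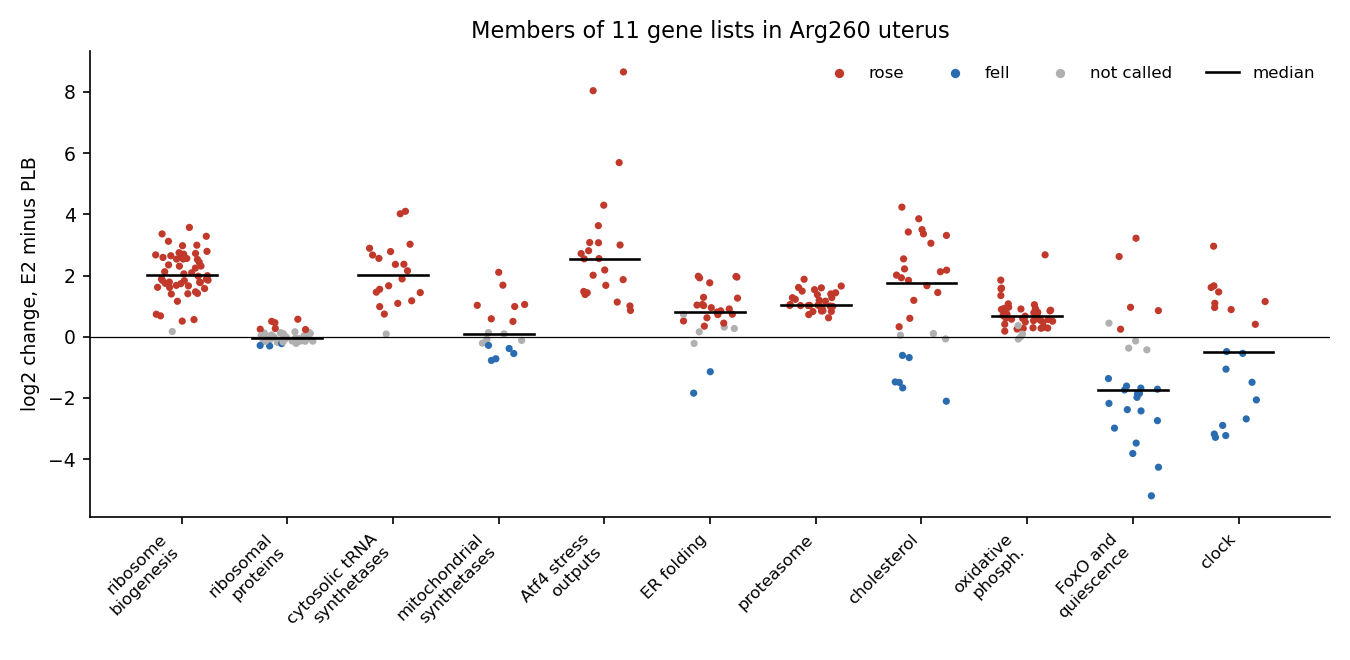
Log2 change, E2 minus PLB, of every tested member of 11 gene lists in Arg260 uterus (y axis; 1 point per gene, coloured by call; the line is the median). Ribosome biogenesis (median 2.02) and ribosomal proteins (-0.04) are apart, as are cytosolic (2.02) and mitochondrial (0.10) synthetases, and clock genes fall to both sides of 0.

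Of 28 genes of cholesterol synthesis, uptake and export 19 rose, 6 fell and 3 were not called (median 1.75). Sqle, the squalene epoxidase of the pathway, read 0.81, 0.57, 0.34 and 0.97 on PLB and 4.23, 4.21, 3.69 and 4.25 on E2 arrays and rose by 3.42 (SE 0.18), with no overlap. The isomerase gene Idi1 rose by 3.85, the lanosterol demethylase gene Cyp51 by 3.50, the farnesyl diphosphate synthase gene Fdps by 2.01 and Srebf2, the transcription factor gene of the pathway, by 1.84. The sterol reductase gene Tm7sf2 fell by 1.49 (SE 0.12), the isomerase gene Ebp fell by 0.68 and Acat2 fell by 0.61, and the kinase gene Mvk (-0.07) and Nsdhl (0.05) were not called. The export gene Abca1 fell by 1.67, its relative Abcg1 fell by 2.10 (-1.60 and not called within slide 1, adjusted p = 0.0825) and the ubiquitin ligase gene Mylip fell by 1.48. In fatty acid oxidation and ketogenesis 13 of 23 genes fell and 5 rose, the rises numbering 2 without PLB replicate 1, PLB replicate 3 or E2 replicate 4 and 3 without any of E2 replicates 1 to 3 or with quantile normalisation. Hadh fell by 1.79, Acads fell by 1.51 and Acadm fell by 1.34. Adipocyte markers stood on average at 0.47 to 1.73 on the PLB arrays and at -1.41 to 1.03 on the E2 arrays, and their part in these falls was not tested.

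Of 44 oxidative phosphorylation genes 40 rose and 0 fell at a median of 0.67, but the count depended on the scaling: with quantile normalisation 21 rose and 6 fell, and with the authors' deposited values 21 rose and 4 fell. Without PLB replicate 3, 35 rose. Cycs (cytochrome c) rose by 2.67, Cox5a by 1.85 and Cyc1 by 1.34. Of 25 glucose and lactate genes 10 rose and 8 fell: the hexokinase gene Hk2 rose by 4.17 and Ldha by 1.27, while Ldhb fell by 1.38, Pfkm fell by 2.18, Pdk2 fell by 2.89 and the lactate receptor gene Hcar1, not well above background on any E2 array, was at least 10.3-fold lower (at least 3.93-fold on its dimmer probe). Nucleotide synthesis genes rose in 17 of 22 cases, with Ctps at 2.97 and Umps at 2.14, and among polyamine genes Srm and Odc1 rose by 3.27 and 1.81.

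Quiescence genes fell. Of 26 FoxO targets and quiescence genes 17 fell and 5 rose (3 with quantile normalisation or without PLB replicate 2, PLB replicate 4 or E2 replicate 4), with a median of -1.73. Pik3ip1, an inhibitor of phosphoinositide 3-kinase (probe at chr11:3242107-3242166, mm9), read 3.24, 3.40, 3.25 and 2.52 on PLB arrays and -2.65, -1.81, -1.86 and -2.04 on E2 arrays, far lower on each; the fall was 36.6-fold (SE of the log2 change 0.24). Sesn1 fell by 3.47, the ubiquitin ligase gene Fbxo32 fell by 2.98, cyclin G2 (Ccng2) fell by 2.74, Txnip, a sensor of glucose uptake, fell by 2.42 and the CDK inhibitor gene Cdkn1b fell by 1.74. Mxi1, a Myc antagonist, was not well above background on any E2 array and was at least 4.23-fold lower. Gadd45a and Tob1 went the other way, at 3.22 and 2.62. Circadian clock genes were all called, 9 up and 10 down of 19. Nr1d1, the repressor REV-ERB alpha, was at 1.06, 0.68, 0.71 and 0.70 on PLB and -3.20, -2.13, -2.30 and -2.35 on E2 arrays and fell by 3.29; Dbp fell by 3.18, Per3 fell by 3.23 and Hlf fell by 2.68. Nfil3, which competes with Dbp for its sites, rose by 2.96 (SE 0.15), Bhlhe40 by 1.66 and Cry1 by 1.61. The labels give the hours after injection but no time of day.

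Cell cycle genes were mixed at 6 h. Cdkn1a, the p21 inhibitor and a p53 target, read -0.27, 0.18, 0.08 and -0.36 on PLB and 3.50, 3.82, 4.09 and 3.98 on E2 arrays and rose by 3.94 (SE 0.17); Cdkn2c fell by 2.20. Of 29 replication genes 12 rose and 4 fell (2 without E2 replicate 2; median 0.19), with Pcna at 1.53 and Cdk4 at 1.04, while Mcm7 fell by 0.88. Of 23 mitosis genes 4 rose and 8 fell (median -0.31): Mad2l1 rose by 5.65 and Tpx2 by 2.39, Cdc25b fell by 2.19 and Bub1b fell by 2.09, and Plk1 (-0.01), Ccnb1 (-0.31, and -1.48 on a dimmer probe) and Top2a (0.32) were not called. In the Bcl2 family Bax rose by 1.43, and Bmf, a death inducer, fell by 4.07 (SE 0.19).

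Vascular genes rose more often than they fell, with 18 rises and 9 falls among 39. Vegfa, the main angiogenic and permeability factor, was at 2.32, 2.25, 2.20 and 3.19 on PLB arrays and 5.56, 5.94, 6.20 and 5.98 on E2 arrays, rising by 3.43 (SE 0.24); PLB replicate 4 was the highest of its group and still below every E2 array. Its relative Pgf rose by 5.18, and the adrenomedullin gene Adm by 1.15 beside its co-receptor Ramp3. Vegfc fell by 2.18, Vegfd fell by 2.63, and Angpt1, the ligand that stabilises vessels, fell by 3.58. The adhesion genes Selp and Icam1 rose by 2.28 and 2.70, and Sele, not well above background on any PLB array, was at least 8.99-fold higher. The tight junction gene Cldn5 of endothelium fell by 2.05, whereas Cdh5, which encodes endothelial cadherin, changed by -0.02 and was not called; of 10 endothelial markers 2 rose and 0 fell (2 with quantile normalisation, 1 without PLB replicate 3 or E2 replicate 3).

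Water channels and epithelial products gave some of the largest rises. Aqp8 rose from -3.60, -3.20, -3.74 and -2.71 to 3.49, 3.12, 3.06 and 3.48 (6.60, SE 0.23, 96.9-fold), Aqp5 by 4.86 and Aqp3 by 2.40, whereas the endothelial channel gene Aqp1 fell by 0.97 and Aqp11 fell by 2.39. Of 27 small proline-rich, keratin and deiminase genes 19 rose and 2 fell (median 2.42, or 2.06 with the 2 bounded members at their bounds). Sprr2f, a cornified envelope protein of the luminal epithelium, read -3.74, -4.23, -3.27 and -4.03 on PLB and 4.39, 2.96, 2.84 and 3.91 on E2 arrays, a rise of 7.34 (SE 0.37). The arginine deiminase genes Padi1, Padi2 and Padi4 rose by 4.88, 4.77 and 2.82, and the hair keratin gene Krt87, well above background on 2 of the 4 PLB arrays, by 7.07 (SE 0.59). Kallikreins Klk1, Klk1b5 and Klk1b26 rose by 6.39, 6.53 and 6.50; the members of the kallikrein and Sprr2 families are near-identical copies, and their probes may read each other's transcripts. Lcn2 rose by 4.22 and Guca2b, a regulator of salt transport, by 5.40. The claudin gene Cldn8 fell by 2.10 while Cldn7 rose by 1.93 and the connexin gene Gja1 by 1.75.

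**Figure D5:**
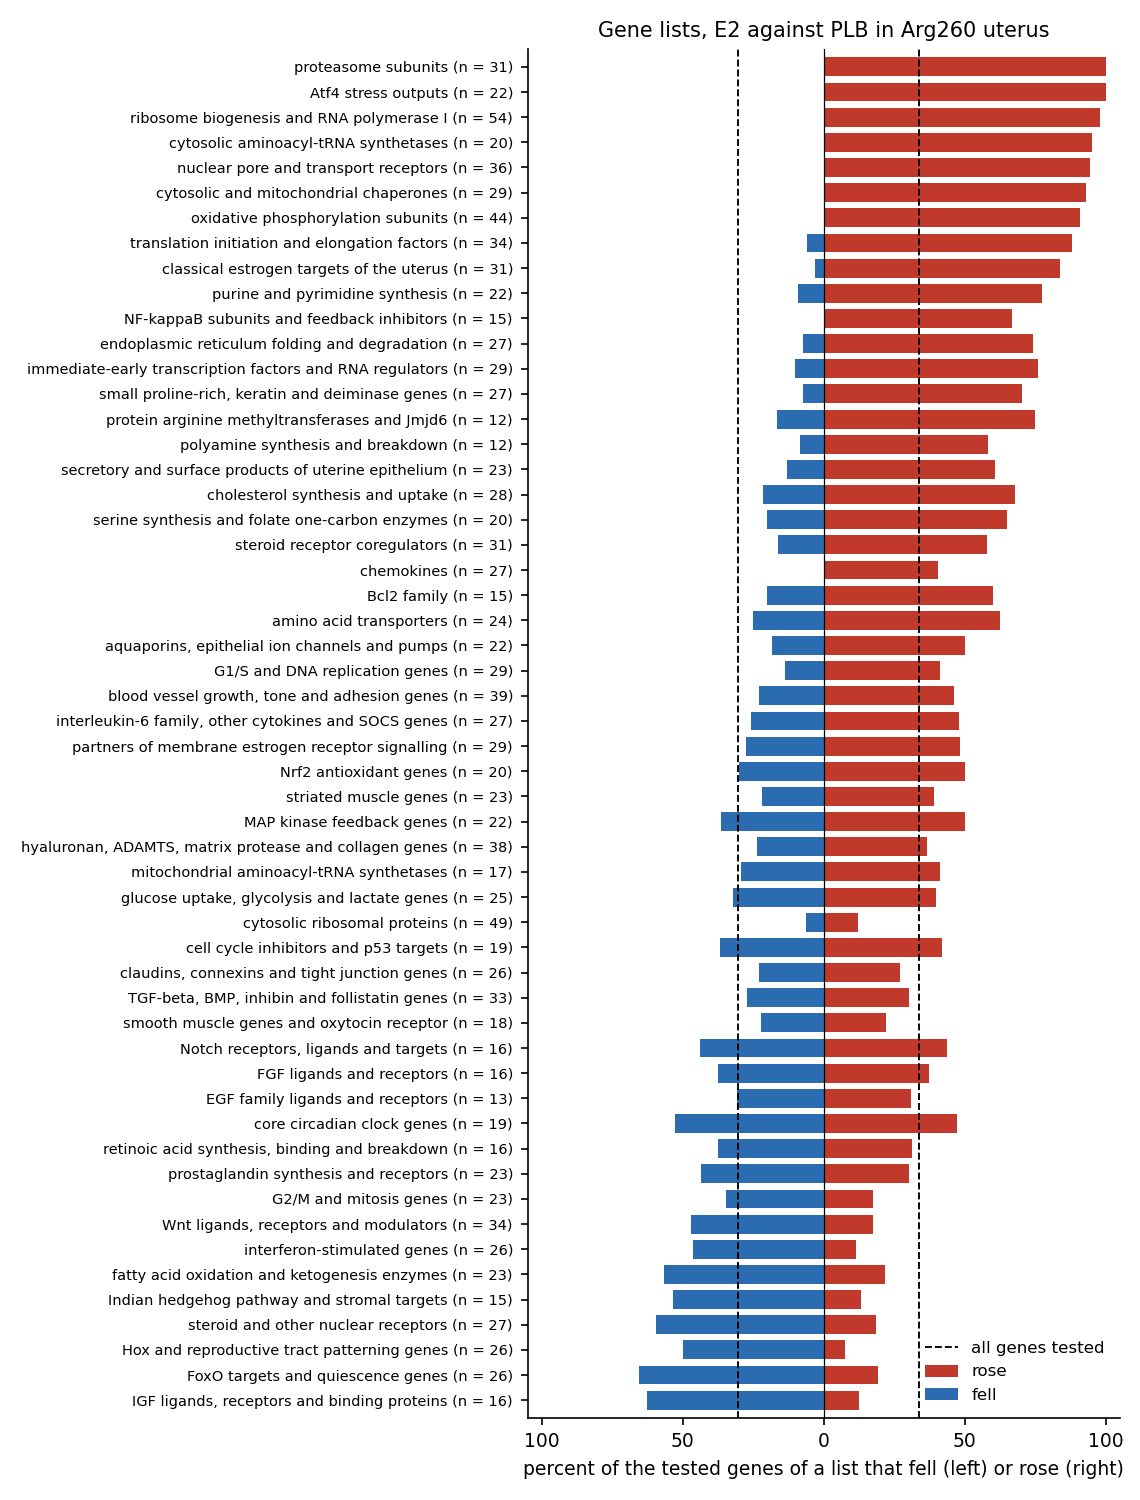
Percent of the tested genes of each of 54 lists that fell (left, blue) or rose (right, red) with E2 in Arg260 uterus; dashed lines give the shares over all 24646 genes, 30.4% and 33.8%. Proteasome (31 of 31) and Atf4 outputs (22 of 22) rose throughout, and IGF family (10 of 16) and FoxO genes (17 of 26) fell most often. The lists were drawn up with earlier results of these data known.

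Of 27 genes of the interleukin-6 family, other cytokines and their SOCS inhibitors, 13 rose, 7 fell and 7 were not called. Il11, an interleukin-6 family cytokine that acts on the decidua, read -3.73, -4.00, -3.98 and -3.76 on PLB arrays and 1.54, 1.34, 1.54 and 1.64 on E2 arrays. The groups were tight and far apart, with a rise of 5.38 (SE 0.10), or 41.7-fold. Il6 was well above background on 1 of the 4 PLB arrays and rose by 4.71 (SE 0.49). The feedback inhibitors of cytokine receptors Socs3 and Socs1 rose by 4.46 and 4.32, and Stat3 by 1.74. Il33 fell by 1.39 and Il34 fell by 1.80. Of 27 chemokine genes 11 rose and 0 fell (2 fell with quantile normalisation or without PLB replicate 4, 1 without E2 replicate 1), with Ccl7, Ccl12, Ccl2 and Cxcl1, attractants of monocytes and neutrophils, at 4.39, 4.05, 3.85 and 3.59; without PLB replicate 3, which carried the high macrophage markers, 12 rose. NF-kappaB genes rose in 10 of 15, with Bcl3 at 2.91. Interferon-stimulated genes fell in 12 of 26 and rose in 3 (1 with quantile normalisation): Ifit2 fell by 2.29, Rsad2 fell by 1.63 and Ifit3 fell by 1.48, and Mx1 rose by 1.97. The mean level of the 26 genes was 0.56 to 0.76 on the PLB arrays. It was -0.02 on E2 replicates 1 and 2, which shared a slide, but 0.60 and 0.46 on E2 replicates 3 and 4, so that the groups overlapped. Of 11 neutrophil, eosinophil and mast cell markers 4 rose, 1 fell and 6 were not called (median 0.001): the neutrophil markers S100a8 and Ly6g rose by 1.61 and 1.60 and the mast cell protease gene Cma1 fell by 0.76. The falls in this list numbered 3 without PLB replicate 3 and 2 without E2 replicate 3 or 4 or with quantile normalisation. In turn, 0 of 11 lymphocyte and 0 of 6 red cell markers were called in limma, although 2 lymphocyte markers fell without PLB replicate 4 and 1 rose without PLB replicate 3, and 1 red cell marker rose without PLB replicate 3 or E2 replicate 3.

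Of 23 prostaglandin genes 7 rose and 10 fell. The inducible cyclooxygenase gene Ptgs2 rose by 1.57, the synthase gene Ptges by 0.78 on its brighter probe and by 4.49 (SE 0.245) on the other, and the transporter gene Slco2a1 by 2.77. Ptgdr, the prostaglandin D2 receptor gene (probe at chr14:45470921-45470980, mm9), read -1.11, -1.16, -2.76 and -2.53 on PLB arrays and was not well above background on any E2 array, at least 19.4-fold lower. The receptor genes Ptgfr and Ptger2 fell by 3.68 and 1.91, and Hpgd, which inactivates prostaglandins, fell by 3.08. Matrix genes gave 14 rises and 9 falls among 38, with a median of 0.16 that turned to -0.09 with quantile normalisation and to -0.05 without E2 replicate 1. The hyaluronan synthase gene Has1 rose by 6.49 (SE 0.27) and Adamts4, which encodes an aggrecanase, by 6.51 (SE 0.21), with the inhibitor gene Timp1 at 3.20, whereas Mmp11 fell by 3.49.

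Patterning genes and muscle genes completed the named groups. Of 26 Hox and reproductive tract patterning genes 13 fell and 2 rose (1 without PLB replicate 3 or any of E2 replicates 2 to 4), with a median of -0.49: Hoxa10, required for implantation, fell by 1.20, Hoxc6 fell by 2.26 and the T-box gene Tbx6 fell by 4.99 on its brighter probe and fell by 2.01 on the other. In the retinoid pathway the synthesis gene Aldh1a2 rose by 3.91 and Aldh1a3 fell by 3.36. Of 23 striated muscle genes 9 rose and 5 fell: Mylk2, the muscle myosin kinase (probe at chr2:152748725-152748784, mm9), read -5.17, -5.27, -4.94 and -5.30 on PLB and 2.66, 2.13, 2.32 and 2.40 on E2 arrays, a rise of 7.55 (SE 0.13), and the heavy chain genes Myh7 and Myh6 rose by 6.85 and 5.30. Of 5 skeletal muscle markers tested, 1 rose, 1 fell and 3 were not called. Tnnt3 was the rise, called on its 2 probes (1.43 and 2.46), whereas Acta1 (0.29) and Tnni2 (0.16) were not called. Of 18 smooth muscle genes 4 rose and 4 fell, which became 7 and 2 without PLB replicate 4, 2 rises without E2 replicate 1, 2 of each without E2 replicate 2 and 2 falls without PLB replicate 1 or E2 replicate 4, with Acta2 at 0.11 and not called.

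Among rises with a bound, the highest bound was that of Trim15, a ubiquitin ligase gene (probe at chr17:36997790-36997849, mm9): it was not well above background on any PLB array, read 1.90, 1.38, 1.56 and 1.20 on the E2 arrays and was at least 228-fold higher. Among genes with an official symbol, large falls not yet given were those of Mcf2, a guanine nucleotide exchange factor gene (-5.00, SE 0.34), well above background on 3 of the 4 E2 arrays, Fn3k, a deglycating kinase gene (-4.64, SE 0.31), and the long non-coding RNA Sox1ot (-5.01, SE 0.85), well above background on 2 of the 4 E2 arrays and with an SD of 1.93 there, which fell by 3.20 on a dimmer probe; Speer4cos was not well above background on any E2 array and was at least 11.9-fold lower.

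The response of the Arg260 uterus was compared with that of the WT uterus by the interaction of genotype and treatment over all 16 arrays. Of 36389 probes 0 were called (limma, smallest adjusted p = 0.662), and 1353 (3.72%) had an unadjusted p under 0.05. The 95% interval of a difference reached, in the median, 0.40 log2 units to either side, which is the precision that 4 arrays per group gave. The 5 genes with the smallest p were Vcam1, Il11, Gpsm2, Pfkfb1 and Inf2. Vcam1, an adhesion molecule gene, read -0.63, -0.62, -0.69 and -0.86 on Arg260 PLB and -0.34, -0.07, -0.06 and -0.09 on Arg260 E2 arrays, a change of 0.56 (SE 0.10) in Arg260 and -0.07 (SE 0.08) in WT, the difference being 0.62 (SE 0.11). For Il11 the difference was 1.14 (SE 0.20), its rise being 4.24 (SE 0.14) in WT. Gpsm2, a spindle orientation gene, fell by 1.60 in Arg260 and changed by -0.87 (SE 0.10) in WT, Pfkfb1 by -0.88 and -1.85 (SE 0.14), and Inf2, a formin gene, by 0.21 and -0.34 (SE 0.08), the Arg260 value turning to -0.27 with quantile normalisation. For Pgr the response in Arg260 minus that in WT was 0.25 (SE 0.28), for Gdf15 -0.48 (SE 0.41) and for Esr1 -0.31 (SE 0.14).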

How the data were processed

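RNA of 16 mouse uterus samples (4 per genotype and treatment, 200 ng of total RNA each) was hybridised in 1 colour to Agilent arrays of 60-base probes on 2 slides. Replicates 1 and 2 of each group were on the first and 3 and 4 on the second. The intensity values used are the processed signals deposited by the authors, which Agilent Feature Extraction 10.10.1.1 had background-subtracted and corrected within each array, per the file headers. The authors also deposited log2 values that share 1 distribution across arrays; limma is named by the submitters' processing notes, without a version. The sources used here do not give the background correction and filter behind these log2 values, which served only as an alternative.

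Spots of a probe were averaged after outlier spots were left out, the signal was divided by the array's 75th percentile and log2 was taken. Non-control probes that passed the software's background test on 4 or more of the 8 Arg260 arrays were fitted with limma 3.58.1 (R 4.3.3; lmFit and eBayes, 6 residual and 2.34 prior degrees of freedom), with Benjamini-Hochberg adjustment over 36389 probes at 0.05; the difference from WT was an interaction over all 16 arrays. The tested probe with the highest mean signal stands for a gene. Probes were named through RefSeq by accession (27325 probes), symbol (3523) or synonym (551), and 24282 kept the file's name; probe positions are those of the files (mm9). Where a probe failed that test on all arrays of a group, its fold is a bound: in the dim group each array's value is replaced by the lowest signal that passed the test on that array, unless the probe itself is brighter, and the means are then compared. The number of arrays limits the precision, with a median 95% interval of 0.30 log2 units to either side of a change. Numbers do not pair the arrays: deviations of same-numbered PLB and E2 arrays correlated at -0.06 to 0.05.

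The members and gene lists were chosen with earlier results of these data known. Named genes are Esr1, Pgr, the 12 largest called rises and 10 largest called falls (counting only officially named genes, without clone, predicted-gene or probe identifiers, that passed the background test on each of the 4 arrays of the brighter group), members of the gene lists, the genes with the largest SD within a group, and the 5 with the smallest interaction p. Some of these genes are not reported here. Examples from a list were picked after their values were seen, from both directions, leaving out most members whose sign or call turned under another normalisation or without 1 array. Alternatives tried were slide or replicate number as a block, each slide alone, all 16 arrays in the fit, other filters, quantile normalisation, normexp background (offset 50), the authors' table, another prior, the mean of a gene's probes, and leaving out each array. The fit was checked on simulated data. Promoters are from RefSeq (GRCm38.p6; 13215 tested genes matched), and motifs were searched on both strands.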

Additional observations from a re-analysis of the deposited data

Results flagged for a closer look

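Among 596 groups of 4 Arg260 arrays examined for the genes named above, 47 (7.89%) had 1 array set apart: its gap to the nearest other array over the whole range was above Dixon's 95% critical value. Chance sets apart about 1 in 20 groups. E2 replicate 1 gave 14 of them, PLB replicate 4 gave 14, and PLB replicate 3 and E2 replicate 3 gave 5 each. For Chac1 the other E2 arrays read 5.06 to 5.25, and E2 replicate 1 read 2.74, still above every PLB array.

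On Arg260 E2 replicate 1, the log2 level lay above the other 3 arrays for Acta1 at 2.60, Aqp5 at 3.18, Cdh5 at 1.70, Fzd1 at 1.02, Hoxa10 at 2.14 and Ptch1 at -4.31. It lay below them for Ccl12 at 2.46, Chac1 at 2.74, Etv1 at -2.93, Nrip1 at 4.01, Pgf at 1.70, Trib3 at 3.17, Vcam1 at -0.34 and Yars at 0.25. On Arg260 E2 replicate 2, the log2 level lay below the other 3 arrays for Asns at 5.81. On Arg260 E2 replicate 3, the log2 level lay above the other 3 arrays for Slc7a5 at 2.90. Lower there were Eif2s1 at 4.29, Hspd1 at 5.94, Nop58 at 5.13 and Sqle at 3.69. On Arg260 E2 replicate 4, the log2 level lay above the other 3 arrays for Pfkfb1 at -2.15. Values below the others came from Fgfr3 at 1.66 and Psat1 at 4.38. On Arg260 PLB replicate 1, the log2 level lay above the other 3 arrays for Nr1d1 at 1.06. It lay below them for Fzd2 at 2.74. On Arg260 PLB replicate 2, the log2 level lay above the other 3 arrays for Rpl5 at 6.44 and Trim15 at -7.38. For the mean of the red cell markers, at 0.36, it lay below them. On Arg260 PLB replicate 3, the log2 level lay above the other 3 arrays for Adgre1 at 4.64 and Fpr1 at 2.46. Lower there were Adm at 1.07, Eef2k at -1.14 and Esr1 at 3.57. On Arg260 PLB replicate 4, the log2 level lay above the other 3 arrays for Adamts4 at 0.09, Akt1 at 4.12, Cldn7 at 3.44, Cma1 at -0.86, Nop58 at 2.39, Padi2 at -0.19, Timp1 at -0.82 and Vegfa at 3.19. Values below the others came from Greb1 at 1.70, Hcar1 at -3.19, Irs2 at 2.49, Mxi1 at -4.51, Nrg2 at 0.17 and Vdr at -2.10.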

How the results depend on the processing

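The count of called genes ran from 12191 (within slide 2) to 16246 (all 16 arrays in the fit) around 15830, and from 14629 to 15629 when 1 array was left out (probes 21582 to 22881). Genes higher with E2 then ran from 7763 to 8255 and lower from 6756 to 7522, with probes at 11228 to 11924 and 10182 to 11134. With 1 array left out, rises of at least 2-fold ran from 3385 to 3646 genes and 4993 to 5323 probes. Falls of that size ran from 3468 to 3636 genes and 5305 to 5513 probes. Scaling and background correction moved these counts further. The 2-fold rises numbered 2482 genes with the authors' values (24401 genes tested), 2837 with normexp background and 2969 with quantile normalisation, against 3502. The 2-fold falls numbered 3018 with the authors' values and 3664 with quantile normalisation, against 3562. With normexp background, 2-fold falls dropped to 2339 genes and 3223 probes; the cause was not tested. Probes called for the difference from WT numbered 0 under every alternative and with each of the 16 arrays left out (0 to 0).

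With the replicate number as a block, 15347 genes were called and 0 probes for the difference from WT; the samples share only a number, and among called named genes Esr1 alone lost its call (adjusted p = 0.0696), and Krt5 gained one (1.80). With the slide as a block 15786 were called.

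Of 265 named genes that were called, 259 kept direction and call under every alternative run; they had been chosen partly for that. Esr1 lost its call in addition within slide 1 (-0.45) and slide 2 (-0.25), without a filter on dim probes (-0.35) and with the mean of its probes (-0.13). Abcg1 (-1.60), Rarb (-1.88) and Derl3 (-1.96) lost theirs within slide 1, and Derl3 (-1.72), Ihh (0.57) and Cma1 (-0.59) within slide 2. Inf2, not called, turned to -0.27 with quantile normalisation and -0.26 with the authors' values, and Fpr1, not called, to 1.31 without PLB replicate 3 (-0.95 to 1.31 over the arrays left out); 6 named genes gained a call under at least 1 alternative. Signal over background limits 103 rises and 202 falls to a bound.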

Other observations

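Fat and squamous epithelium genes varied between arrays of the same group. The mean level of 13 adipocyte markers was 0.47, 1.73, 0.67 and 1.21 on the PLB arrays and -0.85, -1.41, 1.03 and 0.30 on the E2 arrays, the lowest values being those of E2 replicates 1 and 2. Of these markers 1 rose and 3 fell; within slide 1 alone 11 fell and within slide 2 alone 1, and without E2 replicate 3 10 fell. Fabp4, a fatty acid carrier of fat cells, read 2.55, 4.47, 2.89 and 3.86 on PLB and 0.64, -0.54, 3.35 and 2.41 on E2 arrays and was not called (-1.98, SE 0.83); without E2 replicate 3 it was called at -2.61. Pparg, a fat cell regulator, was the marker that rose (1.32, SE 0.17). Krt5, a keratin of basal and squamous epithelium, was at 0.50, -3.75, -5.39 and -4.24 on PLB and 1.56, -0.67, -3.33 and -3.23 on E2 arrays and was not called (1.80, SE 1.48).

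Of 168 genes that stood apart on PLB replicate 3, several are known from leukocytes. Fpr1, a receptor of bacterial peptides, read -4.03, -4.18, 2.46 and -4.31 on PLB and -1.49, -3.61, -3.38 and -2.99 on E2 arrays, and Adgre1, a macrophage surface antigen, 0.37, 0.21, 4.64 and 0.16 and 0.17, -0.64, -0.28 and -0.30. Neither was called (-0.35 and -1.60); without PLB replicate 3 both were, Fpr1 at 1.31 and Adgre1 at -0.51.

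Of 7486 genes with more than 1 tested probe, 280 (3.74%) had called probes in opposite directions, Esr1 among them. Of the genes called, 103 that rose were not well above background on any PLB array, and 202 that fell were not on any E2 array.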
